A study of Homo sapiens with 5 samples.

Results

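Cathepsins are the proteases of the lysosome, and cystatins are small proteins that block those of the cysteine class. Here 10 of these genes were followed as a set, chosen by gene symbol: 8 cathepsins (CTSA, CTSB, CTSC, CTSD, CTSH, CTSL, CTSS and CTSZ) and 2 cystatins (CST3 and CSTB). All transcripts that GENCODE v44 assigns to a gene were summed, and 10 of 10 genes were found among the 61220 genes matched in the tables. They listed 113 of the 227751 human transcripts, of which 85 had at least 1 read.

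The RNA came from NCI-H1975 and HCC827, established human lines grown from lung adenocarcinomas, with no treatment named in the labels. A single poly(A) RNA preparation of each line was used, NCI-H1975 labelled as carrying sequins mix A and HCC827 sequins mix B, which are sets of synthetic spike-in transcripts. The 2 RNAs were mixed by mass so that HCC827 made up 0% (library 100:0, named as NCI-H1975 to HCC827), 25% (75:25), 50% (50:50), 75% (25:75) or 100% (0:100). Each ratio was amplified by PCR as cDNA, sequenced on a nanopore PromethION flow cell, and represented by 1 library. With 1 library per ratio and 1 preparation per line, p-values measured scatter of the libraries about a trend and not the spread between cultures. In bulk RNA, fewer cells with a transcript and less of it per cell cannot be told apart.

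Cathepsins are made as inactive precursors, carried to the lysosome by sorting receptors and activated at its acidic pH. Most are papain-like cysteine proteases (CTSB, CTSC, CTSH, CTSL, CTSS and CTSZ). CTSD is an aspartic protease, and CTSA is a serine carboxypeptidase that also protects the enzymes GLB1 and NEU1. Cystatin C, from CST3, is secreted and acts mostly outside cells, whereas cystatin B, from CSTB, acts in the cytosol and nucleus. In carcinomas these proteases are studied for their release and for the cleavage of matrix proteins.

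Library totals ran from 2932250 to 4058751 reads. Along the series from 100:0 to 0:100 the mean length of the transcripts read fell from 2581 to 2180 bases. Mitochondrial transcripts rose from 5.64% to 8.85% of all reads. The library labelled 0:100 had 0 sequin reads, whereas the others had from 1269 to 5475. That goes against its label. Sequin reads were part of the library totals but of no member's reads. Epithelial markers, which both lines should hold, summed to 5575 CPM (reads scaled to library size) in the 100:0 library and 15794 in the 0:100 library. Of 8 leukocyte and macrophage markers, PTPRC, LYZ, AIF1 and TYROBP had 0 reads in every library, which allows up to 3 reads in each, and the summed list stayed between 66.0 and 99.3 CPM, mostly CD68. The fibroblast list fell from 186 to 7.44 CPM, most of it COL1A1, with DCN at 0 reads throughout, and endothelial markers stayed at or below 1.40 CPM. The part of these differences in the results below was not tested.

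In the test of a trend, each gene's log2 expression was regressed on the HCC827 mass fraction with edgeR's quasi-likelihood test. Its slope is the fitted log2 change from pure NCI-H1975 to pure HCC827, given ± its standard error over 5 libraries. Adjusted p-values are Benjamini-Hochberg values over all 13492 genes tested, and a gene was called at an adjusted p below 0.05. CPM values were scaled by TMM, a method that centres the bulk of genes on no change.

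Of the 10 genes, 8 were called, which is 80% against 45.8% of all genes tested and 60.9% of the 5446 genes that had at least as many reads as the least-read member, CTSS. CTSA, CTSB, CTSC, CTSD, CTSL and CTSZ fell toward HCC827, against 22.3% of all genes, while CTSH and CTSS rose, against 23.5%. Neither cystatin was called. The 10 genes were chosen with earlier results of these data known, so these comparisons with all genes are descriptive. The median slope was -0.42 over the 10 genes and -0.035 over all genes. CTSL, CTSS and CTSZ differed 2-fold or more between pure NCI-H1975 and pure HCC827, which is 3 of 10 against 34.6% of all genes.

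**Figure D1:**
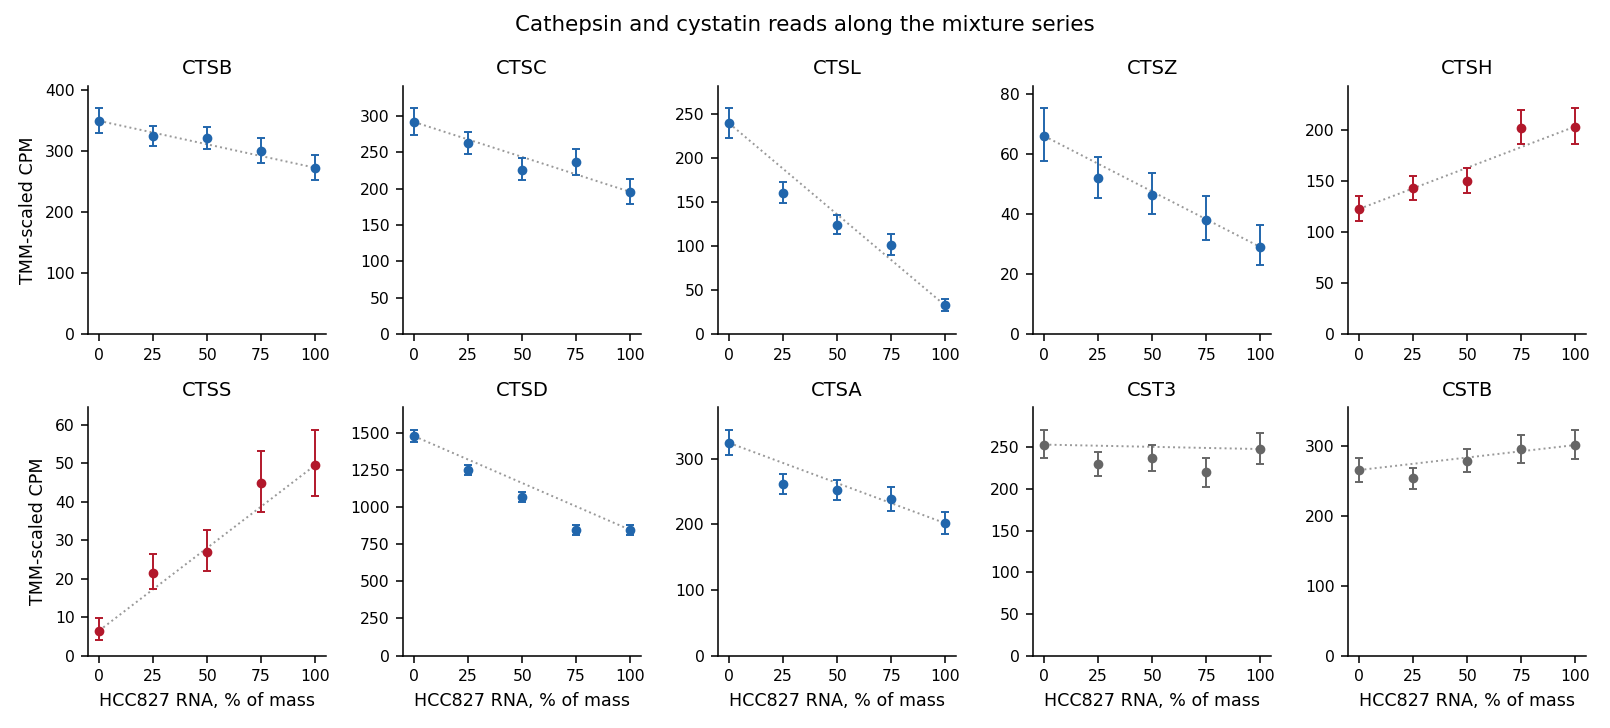
CPM (TMM-scaled) of the 10 genes against the HCC827 percentage of the RNA mass, 1 point per library with exact 95% Poisson intervals for counting error. CTSL falls from 239 to 32.3 CPM and CTSS rises from 6.48 to 49.5, while CST3 stays between 219.9 and 253.

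CTSL, an endopeptidase of the lysosome, had the largest fall of the 8 cathepsins. Its level was 239, 160.3, 124, 101 and 32.3 CPM in mixture order, from pure NCI-H1975 to pure HCC827, with 811 reads at the first and 87 at the last. It fell at each step, and the lowest library was pure HCC827. The pure libraries differed 7.39-fold (95% interval 5.91 to 9.32, counting error only), and the slope was -2.32 ± 0.27 (edgeR adjusted p = 2.63e-05). Without the 0:100 library the slope was -1.67, still called.

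CTSL reads were divided mainly between CTSL-203, a protein-coding transcript with 50.3% of the gene's reads, and CTSL-206, annotated as a retained intron, with 44.1%. Their slopes were -2.44 ± 0.23 and -2.24 ± 0.26 (edgeR adjusted p = 5.25e-07 and 3.19e-06). Retained-intron reads made up 45.3% of the tested CTSL reads at 100:0 (95% Wilson interval 41.8 to 48.7) and 46.5% at 0:100 (36.3 to 57.0). Both transcripts were thus called downward, and their shares in the pure libraries had overlapping intervals. How far the estimates of single transcripts rest on the sharing out of reads that fit several was not tested, for CTSL or other members. The close paralog CTSV, at 26.4 to 31.6 CPM, was not called.

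CTSS, a cysteine protease best known from antigen-presenting cells, where it trims the class II chaperone CD74, moved the other way. Its level was 6.48, 21.5, 26.9, 44.7 and 49.5 CPM in mixture order, from 22, 93, 105, 128 and 133 reads. The 100:0 library was lowest and each further library higher. HCC827 exceeded NCI-H1975 7.63-fold (4.84 to 12.6), and the slope was 2.36 ± 0.33 (edgeR adjusted p = 1.10e-04). It was 1.73 without the 100:0 library and 3.02 without the 0:100 library, called in both cases.

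CTSS-201 held 77.5% of CTSS reads and rose by 2.13 ± 0.32 (edgeR adjusted p = 4.81e-05). CTSS-202, also annotated as protein coding, held 18.7% and rose by 2.55 ± 0.59 (adjusted p = 0.00239), or 1.64 without the 100:0 library. Of the 8 leukocyte and macrophage markers, 3 had enough reads to test beside this rise, with a median slope of -0.77. CD68, a lysosomal glycoprotein, rose from 56.6 to 94.4 CPM (slope 0.80, edgeR adjusted p = 5.99e-04). CSF1R, with 22 reads at 100:0 and 13 at 0:100, had a slope of -0.77, and CD14, with 10 and 0 reads, had -2.54, and neither was called (adjusted p = 0.268 and 0.0572). FCER1G had at most 2 reads in a library, and the other 4 had 0 in each.

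CTSH, an aminopeptidase that in lung takes part in maturation of surfactant protein, also rose. It measured 123, 143, 149.9, 202 and 204 CPM. The values ran upward at each step, with the 25:75 and 0:100 libraries close together and above the other 3. The pure libraries differed 1.66-fold (1.46 to 1.89), with a slope of 0.79 ± 0.13 (edgeR adjusted p = 3.50e-04).

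CTSH reads were spread over transcripts of several kinds. CTSH-201, protein coding, held 34.7% of them and CTSH-204, a retained intron, 21.7%. Transcripts annotated for nonsense-mediated decay took 40.0% of tested CTSH reads at 100:0 (35.3 to 44.7) and 43.4% at 0:100 (39.3 to 47.6). CTSH-201 and CTSH-204 rose by 0.61 ± 0.18 and 0.70 ± 0.19 (edgeR adjusted p = 0.0135 and 0.00860), so both were called upward. CTSH-201 lost its call in 4 alternatives (library totals, DESeq2, and without the 75:25 or the 0:100 library), and CTSH-204 in 3 (library totals, DESeq2 and without the 100:0 library).

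CTSZ, a carboxypeptidase, fell at each step. The 5 libraries gave 66.0, 51.9, 46.5, 38.1 and 29.0 CPM. Pure HCC827 was 2.28-fold below pure NCI-H1975 (1.75 to 2.98), and the slope was -1.11 ± 0.17 (edgeR adjusted p = 2.05e-04). One transcript, CTSZ-201, held 95.7% of its 816 reads, with a slope of -1.19 ± 0.18 (adjusted p = 5.77e-05). The span of NELFCD on the opposite strand overlaps that of CTSZ by 9448 bases and had 882 reads. Whether strand was used in counting is not given in the sources used here, so reads of this pair may not be fully separated.

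CTSB, an endopeptidase and carboxypeptidase, changed least of the 6 cathepsins that fell. It measured 349, 324, 321, 301 and 273 CPM, running downward at each step. The pure libraries differed 1.28-fold (1.17 to 1.41), with a slope of -0.33 ± 0.11 (edgeR adjusted p = 0.0311). This call was lost in 5 of 13 alternatives: without the 100:0, 75:25, 50:50 or 0:100 library (edgeR adjusted p = 0.0934, 0.0548, 0.0520 and 0.170) and when only protein-coding transcripts were summed (slope -0.24, adjusted p = 0.109). CTSB-202, protein coding with 50.0% of the reads, was not called (slope -0.25 ± 0.14, adjusted p = 0.182), and CTSB-203, a retained intron with 31.3%, fell (-0.58 ± 0.16, adjusted p = 0.00702), a call lost without the 0:100 library (slope -0.46). Under library totals CTSB-202 was called downward as well (slope -0.60, adjusted p = 0.00215). Retained-intron reads were 34.0% of tested CTSB reads at 100:0 (31.3 to 36.7) and 28.9% at 0:100 (25.7 to 32.3). These intervals overlap slightly, which does not test a difference between the shares.

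CTSC, or dipeptidyl peptidase I, removes dipeptides from the start of proteins and activates the granule serine proteases. Its level was 292, 262, 226, 237 and 196 CPM. The 100:0 library was highest and the 0:100 library lowest, with the 25:75 library slightly above the 50:50. The slope was -0.52 ± 0.12 (edgeR adjusted p = 0.00413), and the pure libraries differed 1.49-fold (1.34 to 1.66).

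The transcripts of CTSC differed in slope. CTSC-201 has 7 exons, whereas CTSC-203, CTSC-205 and CTSC-206 have 4 exons and end within the gene, upstream of where CTSC-201 ends. In GENCODE v44 these 3 share an 85-base exon at chr11:88328112-88328196, minus strand, that CTSC-201 lacks. All 4 are annotated as protein coding. The exon is shown, in capitals, because it sets the 4-exon transcripts apart, and the 10 bases on each side, in lower case, are intron (hg38, chr11:88328102-88328206, minus strand, 5′ to 3′).

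CTSC exon: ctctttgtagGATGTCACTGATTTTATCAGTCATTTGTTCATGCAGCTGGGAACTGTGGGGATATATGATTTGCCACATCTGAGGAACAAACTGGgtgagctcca

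CTSC-201 measured 146, 148, 128, 159.7 and 136 CPM, with no order along the series (slope -0.085 ± 0.16, edgeR adjusted p = 0.718). Under library totals it was called downward (slope -0.44, adjusted p = 0.0328). The 3 transcripts with the exon above summed to 143, 113, 96.2, 75.5 and 57.6 CPM. Each step of that sum was lower than the one before, and the last library did not overlap the first in its counting interval (48.9 to 67.5 against 131 to 157). CTSC-203, CTSC-205 and CTSC-206 fell by 1.31 ± 0.17, 1.31 ± 0.20 and 1.65 ± 0.50 (edgeR adjusted p = 1.34e-05, 7.39e-05 and 0.0155), the last losing its call without the 100:0 library (slope -0.83), without the 0:100 library (-1.81) and with DESeq2.

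Their share of tested CTSC reads was 49.6% at 100:0 (Wilson 46.5 to 52.8), 43.2% at 75:25, 43.0% at 50:50, 32.1% at 25:75 and 29.8% at 0:100 (26.0 to 33.8). In the test of isoform usage (edgeR diffSpliceDGE), the gene-level F test called CTSC (adjusted p = 0.00370), where 0.899% of 7455 genes were called. The Simes test, which combines single transcripts and was the test chosen for this comparison, did not (adjusted p = 0.243). The F-test call was also lost without the 100:0, 75:25 or 0:100 library (adjusted p = 0.128, 0.0541 and 0.0768). The deposited lengths of the 4-exon transcripts, 6125, 401 and 747 bases, differ from 6144, 669 and 778 in GENCODE v44, and where in the transcripts the lengths differ was not tested.

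**Figure D2:**
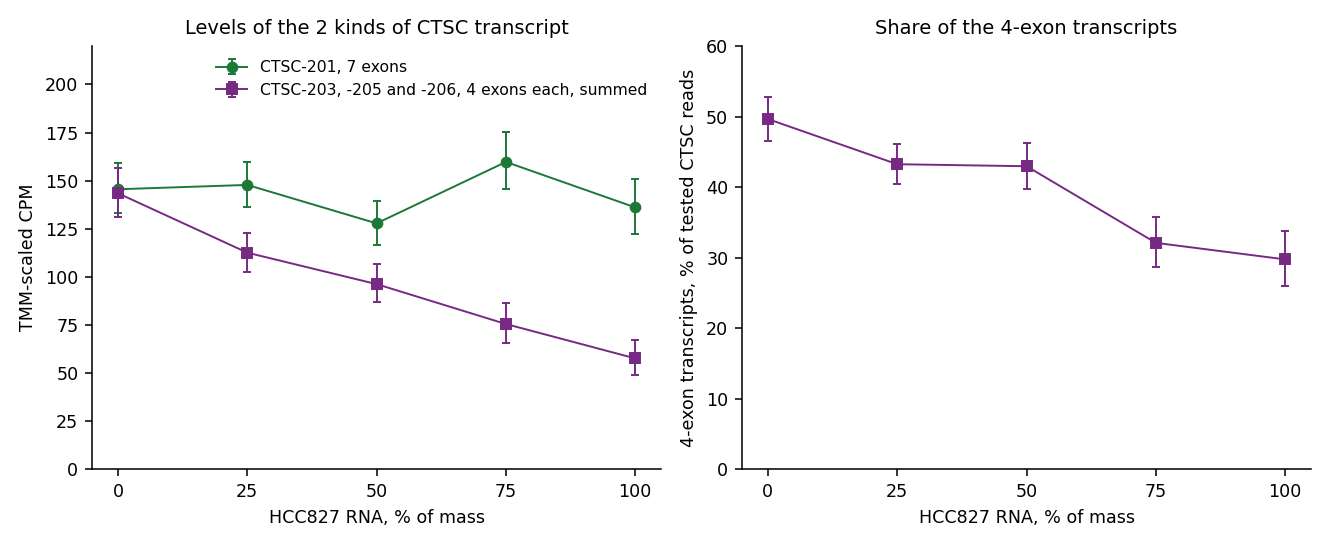
CTSC transcripts against the HCC827 percentage of the RNA mass: left, CPM of the 7-exon CTSC-201 and of the 3 summed 4-exon transcripts with exact 95% Poisson intervals; right, the share of the 4-exon transcripts in tested CTSC reads with 95% Wilson intervals. The sum falls from 143 to 57.6 CPM and the share from 49.6% to 29.8%, while CTSC-201 stays between 128 and 159.7 CPM.

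CTSD, the aspartic protease, had the most reads of the 10 genes. It measured 1477, 1248, 1066, 846 and 846 CPM. The level fell over the first 4 libraries and was the same in the last 2, and the 25:75 library was off the straight line between the pure libraries by -15.7%. Its slope was -0.86 ± 0.11 (edgeR adjusted p = 5.92e-05), and the pure libraries differed 1.75-fold (1.66 to 1.83). CTSD-201 carried 97.5% of the reads and fell by 0.92 ± 0.12 (adjusted p = 8.18e-06), and CTSD-212, with 1.21%, fell by 1.08 ± 0.30 (adjusted p = 0.00856), a call lost without the 100:0 library (slope -0.83) and with DESeq2.

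CTSA, the serine carboxypeptidase, measured 324, 261, 252, 239 and 202 CPM. It fell at each step, most between the first 2 libraries. The slope was -0.60 ± 0.12 (edgeR adjusted p = 0.00147), and the pure libraries differed 1.61-fold (1.45 to 1.78). Reads were divided almost evenly among 6 transcripts, with from 15.6% to 17.3% of the gene's reads each. How far this even division rests on the sharing out of reads that fit several transcripts was not tested. CTSA-202, protein coding, fell by 0.84 ± 0.18 (adjusted p = 0.00163), and CTSA-220, also protein coding, was not called (slope -0.30 ± 0.19, adjusted p = 0.237) but was called downward under library totals (slope -0.65, adjusted p = 0.0119). PLTP on the opposite strand overlaps the end of CTSA by 329 bases and had 2765 reads.

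Of the partners that CTSA protects, 1 was called. NEU1, the sialidase of the complex, rose with a slope of 0.46 ± 0.16 (edgeR adjusted p = 0.0306), a call lost in 7 of 13 alternatives, and GLB1, the beta-galactosidase, had -0.24 ± 0.15 and was not called (adjusted p = 0.207). Under library totals GLB1 was called downward (slope -0.65, adjusted p = 0.00284).

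CTSA and CTSD were also the 2 members whose promoters hold the palindrome CACGTG, the core of the element that the lysosomal regulator TFEB and its relatives bind. The RefSeq table gave promoters for 7 of the 10 genes, with none for CTSB, CTSS and CSTB. In the 250 bases before the RefSeq start, CACGTG, which reads the same on both strands, was found in 6.35% of 35116 promoters. The longer TCACGTG, or CACGTGA on the other strand, which always contains it, was in 3.31%. It lies 47 bases before the start in CTSD, and in CTSA CACGTG begins 42 and 25 bases before it. Both promoters hold the longer form as well. They are shown with CACGTG in capitals (RefSeq, GRCh38.p14, 5′ to 3′ along the gene), CTSA at chr20:45891085-45891334 on the plus strand and CTSD at chr11:1763928-1764177 on the minus strand. Both windows lie within the GENCODE v44 spans of their genes, so these starts are not the outermost GENCODE starts. These are matches of letters in a window, and no binding was measured.

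CTSA promoter: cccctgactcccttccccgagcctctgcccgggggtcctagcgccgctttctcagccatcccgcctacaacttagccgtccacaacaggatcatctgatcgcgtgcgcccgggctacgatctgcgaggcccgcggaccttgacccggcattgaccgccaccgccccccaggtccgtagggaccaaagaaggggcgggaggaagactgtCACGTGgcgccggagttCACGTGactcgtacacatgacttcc
CTSD promoter: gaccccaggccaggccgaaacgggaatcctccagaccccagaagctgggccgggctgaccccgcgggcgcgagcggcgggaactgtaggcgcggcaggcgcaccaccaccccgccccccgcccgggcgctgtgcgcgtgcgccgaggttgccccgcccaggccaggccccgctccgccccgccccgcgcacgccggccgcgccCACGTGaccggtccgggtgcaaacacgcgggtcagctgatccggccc

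Neither cystatin changed with a call. CST3 measured 253, 229.6, 237, 219.9 and 248 CPM, without order, and its pure libraries were 1.02-fold apart (0.922 to 1.13). Its slope was -0.049 ± 0.12 (edgeR adjusted p = 0.768). Under scaling to library totals it was called downward (slope -0.46, adjusted p = 0.00791), as it was after the trend with transcript length was removed from each library (-0.33, adjusted p = 0.0424). CST3-201 and CST3-202 held 50.6% and 46.4% of the reads, with slopes of -0.083 ± 0.15 and -0.048 ± 0.16, and neither was called (adjusted p = 0.699 and 0.848). Under library totals CST3-201 was called downward (slope -0.43, adjusted p = 0.0236). CST3-203, with 3.05% of the reads, fell by 1.46 ± 0.47 (adjusted p = 0.0223). Without the 100:0 library its slope was -0.11 and not called, and without the 0:100 library -2.27. The call was also lost without the 25:75 library and with DESeq2, and the Simes test of isoform usage did not call the gene (adjusted p = 0.609).

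CSTB measured 265, 253, 279, 295 and 301 CPM. The 3 libraries richest in HCC827 were highest, and the slope was 0.23 ± 0.12 (edgeR adjusted p = 0.117). Under library totals it was -0.17, so its sign depended on the scaling. CSTB-201 held 37.1% of the reads (slope 0.43 ± 0.17, adjusted p = 0.0532). It was called upward without the 100:0 library (slope 0.64, adjusted p = 0.0290), and under library totals its slope was 0.078. CSTB-203 held 21.9% (slope 0.034 ± 0.17, adjusted p = 0.901).

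**Figure D3:**
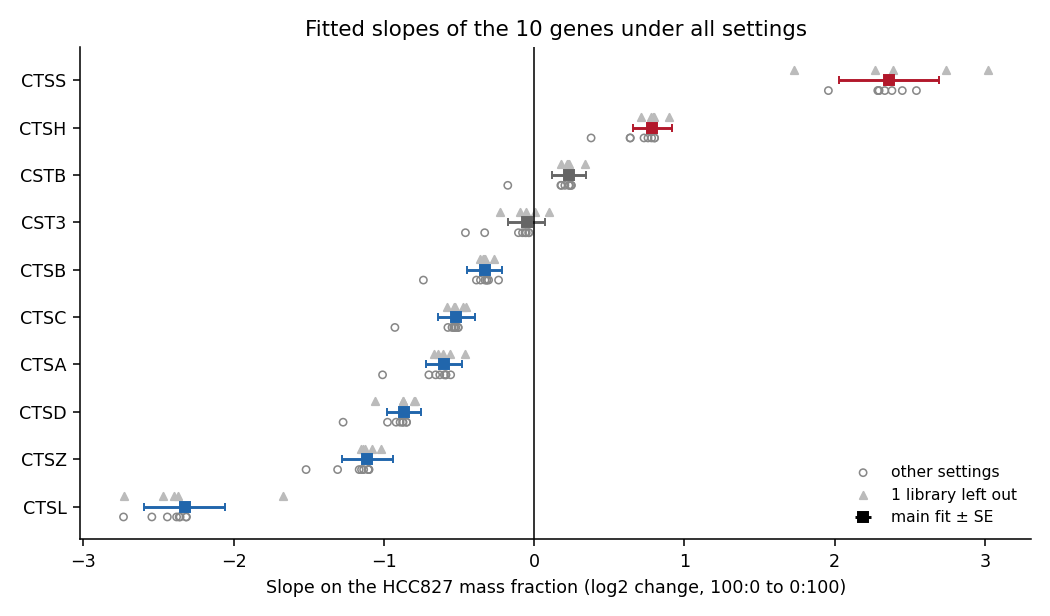
Fitted log2 change from pure NCI-H1975 to pure HCC827 for the 10 genes under all settings. Squares are the main fit under TMM with its standard error. Open circles are other settings, library totals among them, and triangles are fits with a library left out. Under library totals the median slope over all 13492 genes is -0.44, against -0.035 under TMM. The 6 falling cathepsins are below 0 and CTSH and CTSS above 0 under both scalings.

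Summed over the 8 cathepsins, the level was 2876, 2472, 2213, 2008 and 1831 CPM, a fall at each step. The 2 cystatins summed to 519, 483, 516, 515 and 549 CPM, with no order. There were 2.07 cysteine cathepsin reads per cystatin read at 100:0 (1.96 to 2.20), 1.99 at 75:25, 1.74 at 50:50, 1.79 at 25:75 and 1.43 at 0:100 (1.33 to 1.52). This ratio was lowest in pure HCC827, and since it counts reads within a library, it does not depend on the scaling between libraries. CTSL held 811 of the 3650 cysteine cathepsin reads at 100:0 and 87 of 2105 at 0:100. Cystatins other than CST3 and CSTB were not counted. The ratio was not corrected for the trend with transcript length. Removal of that trend moved the slope of CST3 from -0.049 to -0.33 and of CSTB from 0.23 to 0.18. It moved those of the cysteine cathepsins in both directions. The part of transcript length in the ratio was not tested.

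Within the cathepsin reads, CTSD was the largest in both lines, at 51.3% in NCI-H1975 (50.3 to 52.3) and 46.2% in HCC827 (44.8 to 47.6). CTSL fell from 8.31% to 1.77% of them, CTSH rose from 4.27% to 11.1% and CTSS from 0.225% to 2.70%. CTSA, CTSB and CTSC held between 10.1% and 14.9% each in the pure libraries.

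**Figure D4:**
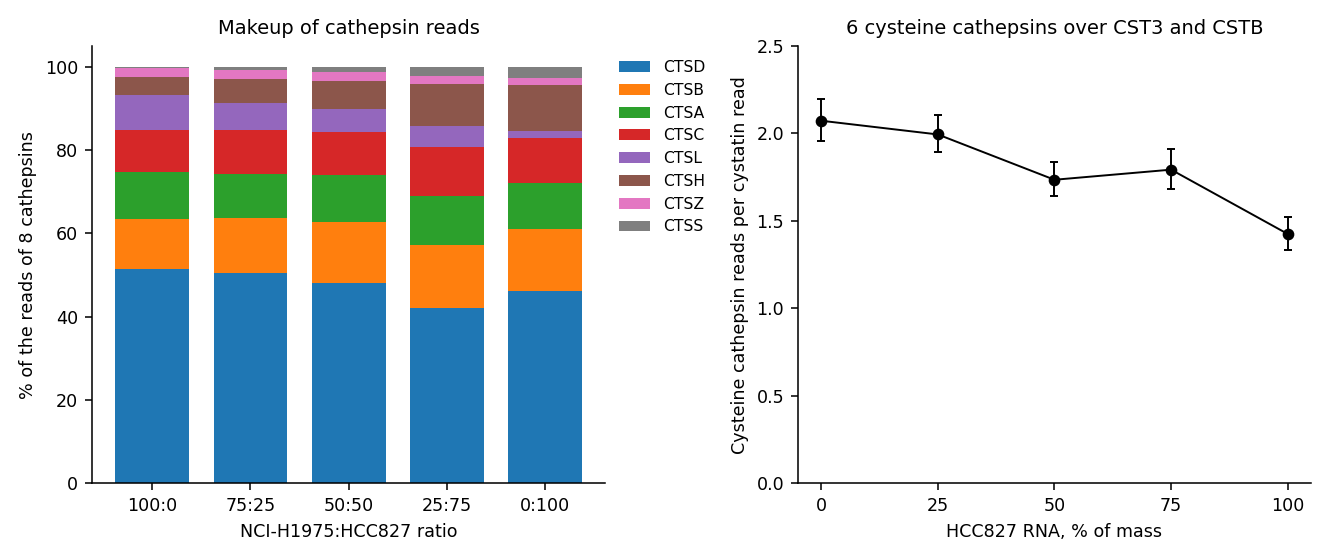
Make-up of the cathepsin reads in each of the 5 libraries, as a percentage of reads on the 8 cathepsins. CTSD takes from 42.1% to 51.3% of them, and the CTSL share shrinks from 8.31% to 1.77% as the CTSH share grows from 4.27% to 11.1%.

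Levels were ranked between genes as CPM per kilobase of the deposited transcript length. In NCI-H1975 the order was CTSD (720.0), CST3 (286), CTSL (178), CTSA (151), CTSB (119.6), CTSC (109), CSTB (108), CTSH (67.8), CTSZ (44.6) and CTSS (1.94). The counting intervals of CTSB and CTSC, and of CTSC and CSTB, overlapped, and those of other neighbours did not. In HCC827 it was CTSD (413), CST3 (279.6), CSTB (123), CTSH (112), CTSA (93.7), CTSB (93.3), CTSC (73.3), CTSL (24.1), CTSZ (19.6) and CTSS (14.8). Here CSTB with CTSH, CTSA with CTSB, CTSL with CTSZ and CTSZ with CTSS overlapped. By this measure CTSL stood at place 3 in NCI-H1975 and place 8 in HCC827, and CTSH at places 8 and 4. By CPM without length the order differed. In NCI-H1975 CST3 (253) was below CTSB (349), CTSA (324), CTSC (292) and CSTB (265). In HCC827 CTSS (49.5) was above CTSL (32.3) and CTSZ (29.0). Which measure ranks genes better in nanopore reads was not tested. The deposited length of CSTB-201 is 2164 bases, against 588 in GENCODE v44, so the place of CSTB depends on the annotation.

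The mixed libraries show how far each gene kept to the mixing. Of the 10 genes, 6 (CTSA, CTSB, CTSH, CTSL, CTSS and CTSZ) ran in 1 direction over the 5 libraries, against 28.5% of all genes tested. When only protein-coding transcripts were summed, 4 did. As a percentage of the way from pure NCI-H1975 to pure HCC827, CTSL stood at 38.1, 55.7 and 66.9% in the 75:25, 50:50 and 25:75 libraries, CTSS at 35.1, 47.6 and 89.0%, and CTSZ at 38.1, 52.8 and 75.4%. The medians over the 3333 genes at least 2-fold apart with at least 100 reads were 27.5, 47.5 and 70.9%. All 3 genes were past the median at 75:25.

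Of the 35 member transcripts with enough reads to test, which held 99.2% of the members' reads, 17 fell, 6 rose and 12 were not called (edgeR, adjusted over 31758 transcripts, of which 33.6% were called, 16.1% downward and 17.5% upward). Under library totals, which call 27.1% of all transcripts downward and 10.5% upward, 24 fell and 3 rose. No called transcript had a sign opposite to its gene's. In the Simes test of isoform usage, 0 of the 9 genes with at least 2 tested transcripts were called (edgeR diffSpliceDGE, where 0.416% of 7455 genes were called), CTSC and CST3 had an unadjusted p under 0.05, and the F test called CTSC.

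The genes that work beside the members were taken from lists that were chosen with earlier results of these data known. Of 8 other cathepsins and napsin, 4 had enough reads to test and 1 rose. NAPSA, an aspartic protease of alveolar type II cells and a lung adenocarcinoma marker, measured 2.06, 64.4, 113, 159 and 257 CPM (slope 3.79 ± 0.60, edgeR adjusted p = 2.46e-04). It was 124-fold higher in HCC827 (60.1 to 311), resting on 7 reads at 100:0. The list's median slope was -0.051.

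All 8 tested genes among 13 other cathepsin inhibitors, CD74 among them, were called, against 45.8% of all genes tested. Of the 8, 3 rose and 5 fell, with a median slope of -1.69. CSTA, the cystatin of the epidermis, measured 23.3, 11.8, 13.6, 5.24 and 0 CPM, and SERPINB4 and SERPINB3, serpins that inhibit cathepsins, fell from 15.9 and 11.8 CPM to 0 as well. Against a limit of 3 reads in the 0:100 library, these were at least 20.9-, 14.3- and 10.6-fold lower, and the list median is the same with the 3 genes at these bounds. CST6 (slope 1.30 ± 0.16) and SERPINB1 (1.14 ± 0.14) rose, from 45.4 to 125 CPM and from 97.2 to 215 CPM. CST7, 1 of the 8 tested genes, had 2, 2, 10, 5 and 10 reads in mixture order. It thus reached the 10 reads required only at 50:50 and 0:100, where it was highest. Its rise lost the call in 5 alternatives. CST7 was not tested without the 50:50 or the 0:100 library, nor with 10 reads required in every library. The calls of CSTA and SERPINB3 were each lost in 1 (DESeq2, and without the 100:0 library), and the SERPINB3 slope was -3.89, or -6.04 without the 25:75 library.

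CD74, already counted among these inhibitors, was named after its values were seen because CTSS trims it. It measured 103, 72.0, 51.3, 39.8 and 11.2 CPM (slope -2.50 ± 0.29, edgeR adjusted p = 2.42e-05). It fell at each step where CTSS rose at each.

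Of 38 other lysosomal hydrolases and cofactors, all tested, 11 rose and 13 fell, with a median slope of -0.13. DPP7, a dipeptidyl peptidase, and GAA, the acid alpha-glucosidase, rose by 1.49 ± 0.14 and 1.09 ± 0.14 (edgeR adjusted p = 7.78e-06 and 4.91e-05). AGA, GALC and LIPA fell by 1.65 ± 0.34, 1.24 ± 0.31 and 1.18 ± 0.20, GALC losing its call without the 0:100 library (slope -0.79). The hydrolases thus moved in both directions.

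Of 14 genes of sorting and the lysosomal membrane, 3 rose (SORT1, SORL1 and M6PR) and 3 fell (IGF2R, LAMP2 and SCARB2). The 2 mannose 6-phosphate receptors, which carry cathepsins to the lysosome, had opposite slopes, 0.57 ± 0.18 for M6PR and -0.68 ± 0.17 for IGF2R (edgeR adjusted p = 0.0185 and 0.00531). The first lost its call in 5 alternatives and the second after the length trend was removed. SORL1 lost its call in 3 (slope 0.71, or 0.39 without the 0:100 library). Of 15 subunits of the vacuolar ATPase, the proton pump that acidifies the lysosome, 3 rose and 7 fell. ATP6V0B rose by 1.49 ± 0.14, ATP6V1C1 by 1.37 ± 0.14 and ATP6V0D1 by 0.88 ± 0.14, while ATP6AP2, ATP6V1D and ATP6V1E1 fell by 1.48 ± 0.16, 1.07 ± 0.16 and 1.00 ± 0.16. Of 9 regulators of lysosomal genes, 8 were tested. FNIP2 rose (1.17 ± 0.35) and FNIP1 fell (-1.02 ± 0.31), losing the call in 3 and 5 alternatives (FNIP2 0.43 without the 100:0 library), and TFEB, with 4 to 15 reads per library, was not called.

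Over the 6 lists 51 of 87 tested genes were called, 22 upward and 29 downward, where 23.5% of all genes were called upward and 22.3% downward. Under library totals it was 13 upward and 43 downward, where 13.4% of all genes were called upward and 37.6% downward.

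**Figure D5:**
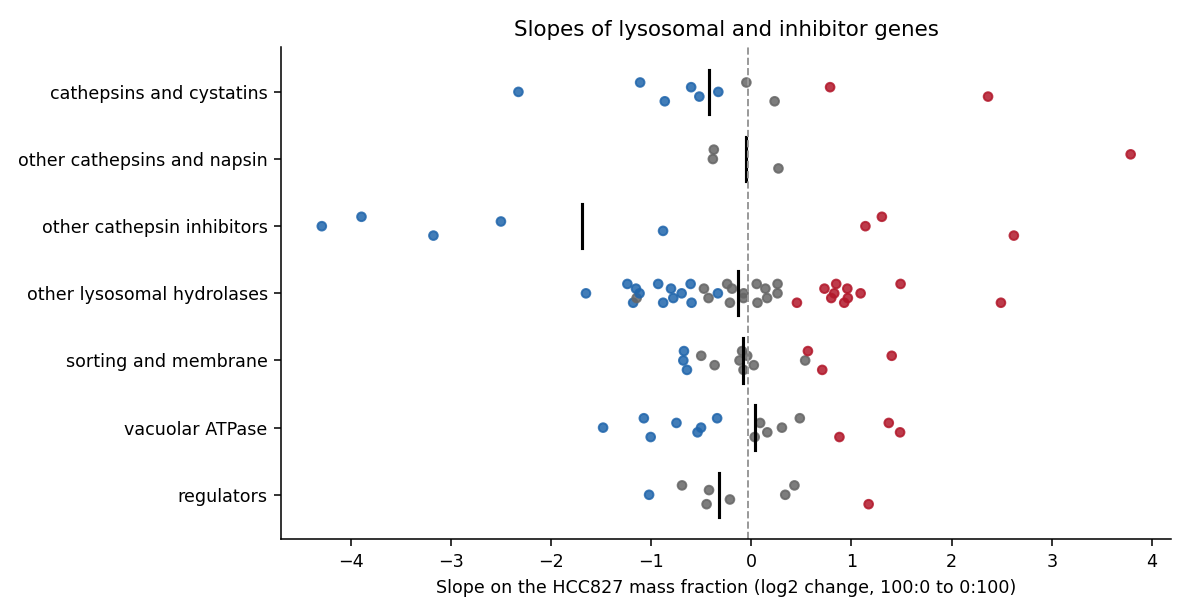
Slopes of the tested genes in each list and of the 10 members, 1 point per gene (blue, called downward; red, called upward; grey, not called), with a black bar at the list median and a dashed line at the median of all genes tested. The members' median is -0.42 and that of the other cathepsin inhibitors -1.69, while those of the hydrolases, the sorting genes and the vacuolar ATPase are -0.13, -0.085 and 0.034.

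By position in GENCODE v44 (hg38), CTSS lies at chr1:150730079-150765957, CTSB at chr8:11842524-11869533, CTSL at chr9:87724051-87731469, CTSD at chr11:1752752-1764573, CTSC at chr11:88265069-88359684 and CTSH at chr15:78921058-78949574. CST3 is at chr20:23626706-23638473, CTSA at chr20:45890144-45898949, CTSZ at chr20:58985686-59008238 and CSTB at chr21:43772511-43776330. CTSA and CTSL are on the plus strand and the other 8 on the minus strand.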

How the data were processed

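Poly(A) RNA of 5 mixtures of 2 cell lines was sequenced as cDNA, 1 library per ratio. The authors deposited, for each library, a table of transcripts with an estimated count of reads and a transcript length in bases, with no scaling. The submitters' processing notes name minimap2 2.24, Salmon 1.9.0 and GRCh38. The annotation release is not given in the sources used here. Of the values, 2 were not whole and were rounded, and 161 identifiers listed again were summed.

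Identifiers were paired with genes through GENCODE v44, which matched from 98.5 to 98.7% of human reads. Of 35 tested member transcripts, 17 had another length in that release. The members and lists were chosen with earlier results of these data known.

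Genes or transcripts with at least 10 reads in at least 2 libraries were tested with edgeR 4.0.16 (R 4.3.3). The model was a quasi-likelihood slope on the HCC827 mass fraction with TMM scaling, with Benjamini-Hochberg adjustment over the whole table and a threshold of 0.05. Standard errors were obtained from the slope and its F statistic. Mixing adds expression linearly, so the slope on the log2 scale understates ratios of genes near 0 in 1 line. Isoform usage was tested with diffSpliceDGE. Intervals are 95% (exact Poisson for CPM, Clopper-Pearson for ratios, Wilson for shares). They cover counting error only, since PCR copies could not be told from separate molecules. A count of 0 was taken to allow 3 reads.

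Alternatives were DESeq2 1.42.0 size factors and its Wald test, library totals, limma 3.58.1 with voom, other filters, protein-coding transcripts only and leaving out each library. Removal of the trend with transcript length (lowess, span 0.3) was added after the data were seen. The slope script was checked on simulated counts with 200 changed genes among 13492, of which 119 were recovered, with 4 false calls. Far fewer genes changed there than were called in these data, so it did not check the scaling. Of each list, up to 3 called genes per direction with the largest slopes were named, with GLB1 and NEU1. One gene that this rule selects is not reported here. Of each member, the 2 transcripts with most reads were named. CTSC-205, CTSC-206, CST3-203, CD74, CTSV and marker genes were named after their values were seen.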

Additional observations from a re-analysis of the deposited data

How the results depend on the processing

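Under 13 alternatives, CTSA, CTSC, CTSD, CTSH, CTSL, CTSS and CTSZ kept their direction and their call. CTSB kept its direction and lost its call in 5. Leaving out 1 library at a time gave 7 to 8 called members, 14 to 22 called member transcripts against 23, 36 to 49 called list genes against 51, and 0 members called by the Simes test. The DESeq2 Wald test called 13 member transcripts. The F test of isoform usage called 1 member against 0. Under library totals 5 members differed 2-fold or more between the pure lines, against 3.

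Signs changed only for values that were not called. Under library totals the CSTB slope was -0.17, its log2 pure ratio -0.23 and the CSTB-203 slope -0.32. The CSTB-203 slope was -0.055 with 10 reads required in every library, -0.092 without the 100:0 library and -0.012 without the 75:25 library. Without the 100:0 library the slopes of CST3 and CST3-202 were 0.097 and 0.12, and without the 25:75 library 0.0075 and 0.040. The CTSC-201 slope was 0.041 without the 0:100 library. Leaving out 1 library at a time gave from -0.24 to 0.12 for CST3-202, -0.092 to 0.17 for CSTB-203 and -0.19 to 0.041 for CTSC-201. The cause was not tested. Of 687 slopes of single named genes and transcripts under alternatives, 616 kept direction and call, 53 lost the call, 8 gained it and 10 changed sign.

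No paired analysis was possible because each ratio had 1 library. A fit without an end library rests on 4 libraries and a shorter range. CTSS at 100:0 (22 reads) and CTSL at 0:100 (87 reads) limit the precision of their ratios.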
